A study of Mus musculus with 4 samples.

Results

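Dlk1, Peg3, Ndn, Magel2, Nnat, Snrpn, Plagl1, Cdkn1c and Grb10 are protein-coding genes of which, in many tissues, only the copy inherited from one parent is expressed. They were followed in RNA bound to ribosomes of midbrain dopamine (DA) neurons and in RNA of the whole midbrain. Their members on the array were all probe sets whose only gene symbol in the platform annotation is one of these 9 names, 25 of the 45037 probe sets and 9 of the 18193 genes measured. The genes were chosen by their levels on these same TRAP and input arrays, so that contrast is described for them without a test.

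In Translating Ribosome Affinity Purification (TRAP), a ribosomal protein tagged with eGFP is made in one kind of cell and its ribosomes are pulled down with the RNA they carry. The TRAP fraction was the RNA purified in this way from midbrain of the Slc6a3 JD1640 TRAP line (2 arrays, replicates 2 and 4), and the input fraction, called unbound or total in the labels, was RNA of the same kind of midbrain lysate (2 arrays, replicates 1 and 2). Each array was hybridised with RNA from a pool of 5 adult mice of both sexes, aged 6 to 12 weeks. All mice of both fractions carried the transgene, in which a bacterial artificial chromosome (BAC) with the dopamine transporter gene Slc6a3 drives eGFP/RPL10A. The line came from FVB oocytes, was bred to C57BL6/J and goes back to a single founder, so every array comes from 1 line. Levels are the deposited Affymetrix mouse genome array values raised out of log2, in arbitrary units. A probe set was taken as above background if a fraction, TRAP or input, had no array under 50 units, and levels of different probe sets were not set against each other.

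The fractions matched their labels in the direction of the markers given here. The 6 dopamine neuron markers were all higher in TRAP RNA with limma adjusted p-values of 0.0403 or lower. Th and Drd2 passed under all 10 alternatives. Without 1 of the TRAP arrays the adjusted p was 0.0603 or 0.0636 for Slc6a3, 0.101 or 0.113 for Ddc and 0.175 or 0.191 for Aldh1a1, and with any 1 array left out it was 0.101 to 0.128 for Slc18a2. Slc6a3 itself stood at 37882 and 41149 units on the TRAP arrays against 4856 and 5825 units on the input arrays. None of the 10 astrocyte and 9 oligodendrocyte markers above background had a positive log2 fold change. Of all 10014 genes above background, 3422 had a negative one. In the limma fit 2 of the astrocyte and 0 of the oligodendrocyte markers passed as lower, against 6.87% of all genes. The summed levels of these markers were lower in TRAP RNA than in input, but a part of the signal remained. They were 14632 to 25611 units for astrocytes, against 42534 to 49522 units in input. For oligodendrocytes they were 36023 to 81865 units, against 91082 to 100957 units in input. The median log2 fold change of all probe sets above background was 0.44, not 0. The part of normalization in this offset was not tested. In bulk RNA of this kind, fewer cells of a type and less RNA per cell cannot be told apart, and the arrays do not separate the maternal from the paternal transcript. TRAP RNA is selected for binding to ribosomes and input RNA is not. A transcript's level in the cells and its share on ribosomes therefore cannot be told apart either.

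Imprinting rests on DNA methylation laid down in the egg or the sperm, mostly at CG pairs of control regions, which then silences genes of one parental chromosome across a cluster. Many imprinted genes act on growth, and several remain expressed in neurons of the hypothalamus and midbrain. Dlk1 codes for a transmembrane protein with EGF-like repeats that resembles the Delta ligands of Notch but lacks the domain by which those bind the receptor. In mouse midbrain dopamine neurons it has been described as a target of the transcription factors Nr4a2 and Pitx3.

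Promoters were read from RefSeq (GRCm38.p6) for 8 of the 9 genes, as 12 windows of 250 bases directly upstream of a start site. Shown are those of Dlk1, Ndn and Magel2, which were higher on the TRAP arrays, and of Peg3, which was not, with the CG pairs, the bases that methylation acts on, in capitals.
Dlk1: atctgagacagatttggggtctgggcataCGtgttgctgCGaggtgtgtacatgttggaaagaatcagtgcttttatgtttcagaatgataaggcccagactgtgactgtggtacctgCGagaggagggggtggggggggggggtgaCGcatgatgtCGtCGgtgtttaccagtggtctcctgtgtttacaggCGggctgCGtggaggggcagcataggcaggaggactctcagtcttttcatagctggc
Ndn: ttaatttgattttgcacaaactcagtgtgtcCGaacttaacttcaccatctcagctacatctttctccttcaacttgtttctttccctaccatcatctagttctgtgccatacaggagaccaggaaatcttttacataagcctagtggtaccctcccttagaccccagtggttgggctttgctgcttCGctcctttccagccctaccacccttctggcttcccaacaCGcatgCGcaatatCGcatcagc
Magel2: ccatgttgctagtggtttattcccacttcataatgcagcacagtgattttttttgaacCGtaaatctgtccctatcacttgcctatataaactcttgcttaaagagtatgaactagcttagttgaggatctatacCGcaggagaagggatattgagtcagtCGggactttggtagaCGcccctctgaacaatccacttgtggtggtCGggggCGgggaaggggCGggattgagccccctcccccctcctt
Peg3: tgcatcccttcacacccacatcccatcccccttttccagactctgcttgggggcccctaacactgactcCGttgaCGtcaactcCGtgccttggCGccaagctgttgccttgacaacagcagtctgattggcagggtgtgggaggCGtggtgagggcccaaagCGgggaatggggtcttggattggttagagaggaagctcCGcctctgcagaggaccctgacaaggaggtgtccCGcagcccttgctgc

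The Dlk1 window (chr12:109452573-109452822, plus strand) and the Peg3 window (chr7:6730420-6730669, minus strand, printed 5′ to 3′ along the gene) each held 8 CG pairs. The Magel2 window (chr7:62376729-62376978, plus strand) held 7 and the Ndn window (chr7:62348027-62348276, plus strand) held 5. The median over 32851 windows of the same length was 6. The letters AAAGGTCA, the motif that Nr4a2 binds as a monomer, were searched on both strands and were found in 0 of the 12 windows of these genes and in 1.34% of all windows. TAATCC, a core motif of Pitx-type homeodomains, was found in 0 of the 12 and in 6.25% of all windows. GGGCGG, the core of the Sp1 box, was found in a window of Magel2, Plagl1 and Grb10, and in 32.7% of all windows. Such letters are a description of these windows only, and the search did not reach enhancers or control regions elsewhere.

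Of the 25 probe sets, 14 were above background and stood for 8 genes. Both TRAP arrays were above both input arrays at 11 of these 14, both were below at 2, and the fractions overlapped at 1. The rule had used this contrast, so nothing is read from these counts. Over all 17073 probe sets above background, 51.5% had both TRAP arrays above and 24.9% both below. Of the 11 others, 10 stayed under 50 units on all arrays and 1 of Peg3 reached 57.2 units on a single input array.

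**Figure D1:**
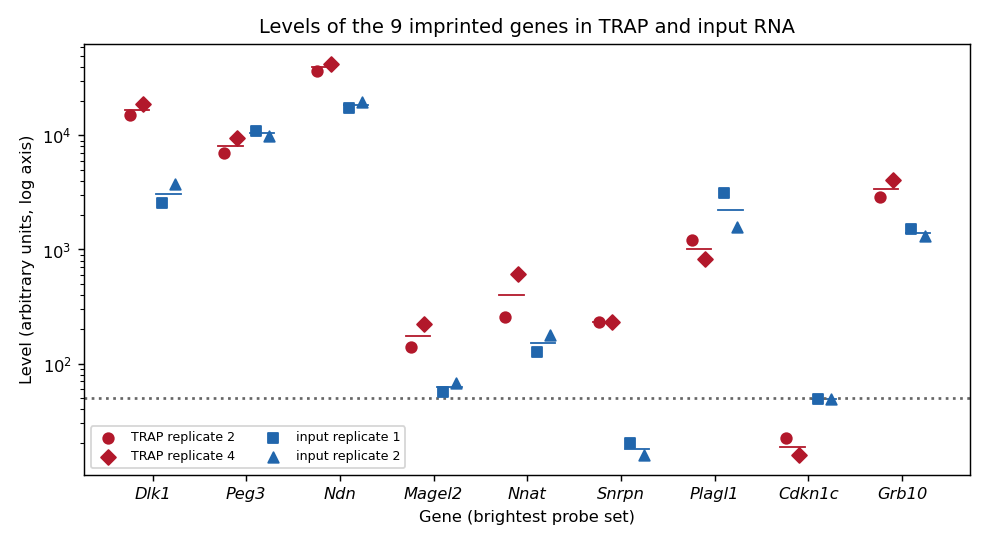
Level of the brightest probe set of each of the 9 genes (arbitrary units, log axis) on the TRAP arrays (red) and the input arrays (blue); the short lines are means of the log2 values and the dotted line is the background of 50 units. Dlk1, Ndn, Magel2, Nnat, Snrpn and Grb10 were higher on both TRAP arrays, Peg3 and Plagl1 lower, and Cdkn1c stayed under the dotted line on all 4 arrays.

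Dlk1 was higher on both TRAP arrays by both of its probe sets. The brightest one, 1442724_at, which was built on an expressed sequence tag, gave 15036 and 18882 units on the TRAP arrays against 2569 and 3724 units on the input arrays. The fractions did not overlap, and the lower TRAP array was several times the higher input array. The log2 fold change was 2.45 ± 0.29 (standard error, n = 2 arrays per fraction), or 5.45-fold. Of the 13675 probe sets that reached 50 units on all arrays, 264, or 1.93%, had a higher one. The genes were chosen by this contrast, so nothing is read from that position. Probe sets under 50 units on any array, such as the other Dlk1 probe set, were not ranked.

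The other Dlk1 probe set, 1449939_s_at, was designed on the RefSeq transcript and gave 946.8 and 2093 units on the TRAP arrays against 17.5 and 19.4 units on the input arrays. Dlk1 was thus below background in whole midbrain by this probe set and well above it by the first. With the input set to 50 units, the TRAP level was at least 28.2-fold higher. Both probe sets had the same direction, but their folds differed several times over, and the average of both gave a log2 fold change of 4.35 in place of 2.45. Whether the expressed sequence tag lies within the annotated Dlk1 transcript was not tested.

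**Figure D2:**
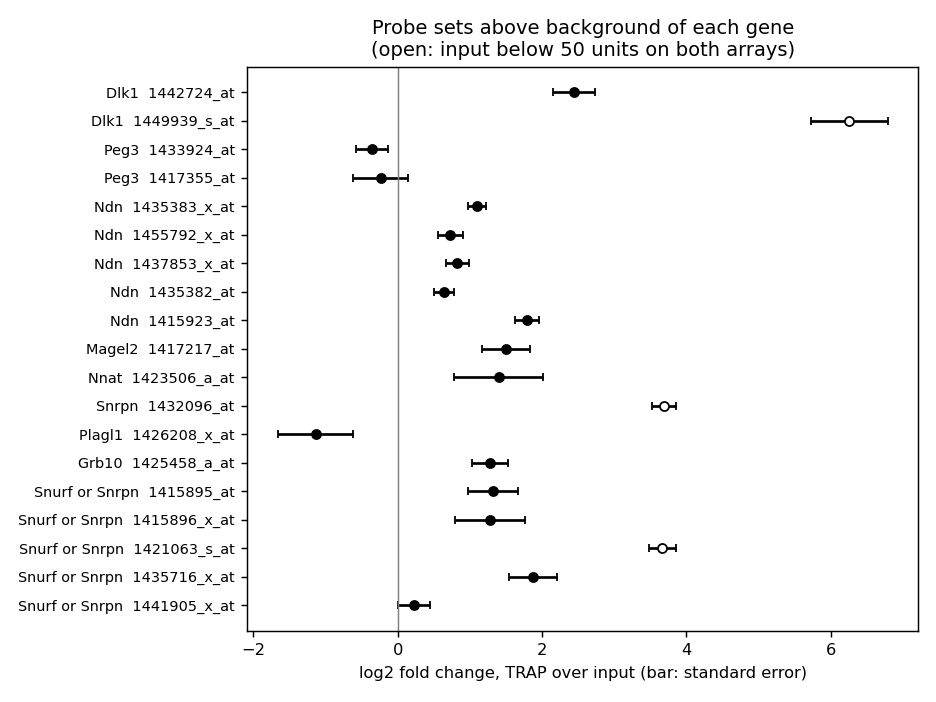
Log2 fold change of TRAP over input, with its standard error (n = 2 arrays per fraction), for the 14 probe sets of these genes above background and for 5 that match both Snurf and Snrpn. Open circles had both input arrays under 50 units, where the value depends on the background. The Dlk1 probe sets lie at 2.45 and 6.25, the Ndn probe sets between 0.64 and 1.79, and those of Peg3 and Plagl1 left of 0.

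Ndn and Magel2 lie next to each other on chromosome 7, in the region whose human counterpart is lost in Prader-Willi syndrome, and both code for proteins of the MAGE family, which pair with ubiquitin ligases. Ndn codes for necdin, first known from postmitotic neurons. Of its 8 probe sets, 5 were above background and the 3 others sat at the array floor. The brightest, 1435383_x_at, gave 36337 and 42570 units on the TRAP arrays against 17414 and 19431 units on the input arrays, a log2 fold change of 1.10 ± 0.13. All 5 had both TRAP arrays above both input arrays, and their folds ran between 1.56 and 3.46. The highest was that of 1415923_at, with 12407 and 15972 units on the TRAP arrays against 4063.8 and 4064.1 units on the input arrays. The other 4 read 18433 units or more on every TRAP array and had the smaller folds, and the part of signal saturation in them was not tested.

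Magel2, whose protein joins the ligase Trim27 in recycling membrane proteins from endosomes, has 1 probe set. It gave 139.2 and 221.0 units on the TRAP arrays against 56.7 and 67.7 units on the input arrays, so the input arrays were just above background. This was a log2 fold change of 1.50 ± 0.33, or 2.83-fold. The fractions did not overlap, although the TRAP arrays differed from each other more than the input arrays did.

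Snrpn codes for SmN, a neuronal form of a core protein of the spliceosome, and shares its transcript with the short upstream reading frame Snurf. The 1 probe set named for Snrpn alone, 1432096_at, gave an identical 231.1 units on both TRAP arrays against 20.3 and 15.8 units on the input arrays, which places TRAP at least 4.62-fold higher than the background. Identical values on separate arrays can arise in the background model of these data, so they were not taken as a measure of precision. A further 6 probe sets match both Snurf and Snrpn and were not counted as members. Of these, 5 were above background and 4 had both TRAP arrays above both input arrays, with log2 fold changes between 0.23 and 3.67 over the 5. Among them, 1435716_x_at gave 9689 and 9672 units on the TRAP arrays against 3377 and 2070 units on the input arrays. The lowest of the fold changes belonged to 1441905_x_at, with 9953 and 7389 units on the TRAP arrays against 7875 and 6795 units on the input arrays, where the fractions overlapped.

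Nnat codes for neuronatin, a small protein of the endoplasmic reticulum related to regulators of calcium pumps. Its probe set gave 258.7 and 608.5 units on the TRAP arrays against 126.1 and 179.4 units on the input arrays. This made a log2 fold change of 1.40 with a standard error of 0.62, and the TRAP arrays lay more than a doubling apart. Grb10 codes for an adaptor that binds and restrains the insulin and IGF receptors, and in mouse neurons it is the paternal copy that is used. By 1425458_a_at it gave 2876 and 4058 units on the TRAP arrays against 1501 and 1322 units on the input arrays, a log2 fold change of 1.28 ± 0.25. Its other 2 probe sets stayed under background, and averaging all of them took the value to -0.05.

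The zinc finger transcription factors Peg3 and Plagl1 had lower means in TRAP RNA. Peg3 was high in both fractions. By 1433924_at it gave 6939 and 9562 units on the TRAP arrays against 10825 and 9966 units on the input arrays, a log2 fold change of -0.35 ± 0.22. The second probe set, 1417355_at, gave 1316 and 2323 units on the TRAP arrays against 2054 and 2067 units on the input arrays, and there the fractions overlapped. Peg3 thus differed little between the fractions, and the spread of the TRAP arrays was larger than the distance between them.

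Plagl1, a growth-restraining factor also known as Zac1, gave 1210 and 829.5 units on the TRAP arrays against 3102 and 1567 units on the input arrays by 1426208_x_at. Its log2 fold change was -1.14 ± 0.52. Both TRAP arrays were below both input arrays, though the input arrays differed from each other by nearly as much as the fractions did. Cdkn1c, the maternally expressed inhibitor p57Kip2 of the cell cycle, was under background throughout. It gave 22.2 and 15.8 units on the TRAP arrays against an identical 48.5 units on both input arrays, just inside the limit of 50, so no fold is given.

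All 14 probe sets above background were also compared between the TRAP arrays. The level was higher on TRAP replicate 4 at 12 of them, higher on TRAP replicate 2 at 1, that of Plagl1, and equal at 1. By the brightest probe set of each gene it was higher on replicate 4 at 6 of 8 genes, against 4907 of all 10014 genes above background, and higher on replicate 2 at 1, against 4814. Dopamine neuron markers had the same order at 6 of 6 genes, with a median log2 difference of -0.33 for replicate 2 minus replicate 4. Markers of other cells had the opposite order. All 9 oligodendrocyte markers (median 1.46), 9 of 10 astrocyte markers (median 0.81), 3 of 3 microglia, 4 of 4 endothelial and mural and 3 of 3 GABAergic markers were higher on TRAP replicate 2. The same held for 3 of 3 hypothalamic neuropeptide genes (median 3.84), of which Pmch, the gene of melanin-concentrating hormone, gave 829.7 units on TRAP replicate 2 and 57.8 units on TRAP replicate 4. The TRAP arrays thus differed in the levels of markers of other cells, and their part in the levels of the imprinted genes was not tested.

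**Figure D3:**
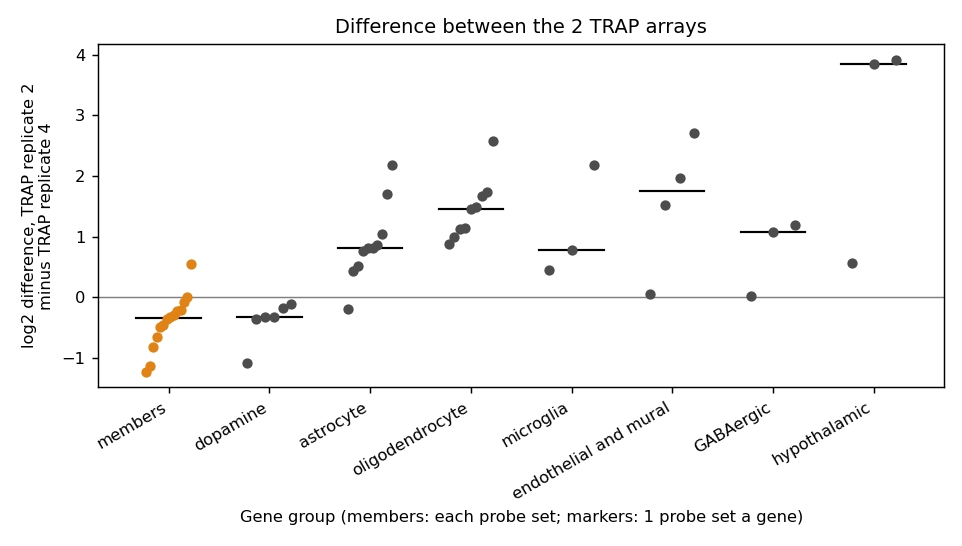
Log2 difference between the TRAP arrays, replicate 2 minus replicate 4, for each probe set of the 9 imprinted genes above background (orange) and for marker genes of 7 cell groups (grey), with the median as a line. The imprinted genes lie mostly under 0 with the dopamine neuron markers, while the markers of other cells lie mostly above 0.

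Leaving out an array moved the sizes of the fold changes. It could not change their signs, since the fractions did not overlap at the brightest probe set of any of these genes. Without input replicate 1 the log2 fold change of Dlk1 was 2.18, and without input replicate 2 it was 2.71. Over all alternatives that of Ndn ran between 0.63 and 1.21 and that of Magel2 between 1.09 and 1.83. The size of the Nnat value rested on which TRAP array was kept, with a log2 fold change of 2.02 without TRAP replicate 2 and 0.78 without TRAP replicate 4. Centring the arrays on bright probe sets moved the median of all probe sets above background to 0.03, and with that Dlk1 came to 2.04.

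Other imprinted protein-coding genes were taken from a list of 52, of which 44 were measured and 29 were above background by their brightest probe set. In the limma fit over all probe sets 3 of the 29 were higher, 0 were lower and 26 did not pass by that probe set. Of all 10014 genes above background, 18.7% were higher and 6.87% lower. A dimmer probe set was lower for Gnas, Phactr2, Herc3 and Impact (1 of 2 above background each). For Commd1 (1 of 2) and H13 (1 of 4) a dimmer one was higher. Over all probe sets above background, 9.13% were lower and 18.8% higher. The log2 fold change was positive for 21 and negative for 8, with a median of 0.65 against 0.44 for all genes above background. Of the 29, 16 had both TRAP arrays above both input arrays, against 52.3% of all genes, and 6 had both below, against 23.6%.

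Gnas, which codes for the stimulatory G protein alpha subunit and its imprinted variants, gave 25314 and 25483 units on the TRAP arrays against 13536 and 13058 units on the input arrays. Its log2 fold change was 0.93 (limma adjusted p = 0.00131). Among 10 alternatives the call was lost only when all its probe sets were averaged, which also turned the sign (-0.76, adjusted p = 0.133). A second Gnas probe set, 1453413_at, gave 4.61 units on both TRAP arrays against 59.5 and 51.8 units on the input arrays, at least 1.11-fold lower. The probe sets of this gene, which has several promoters, therefore ran in opposite directions.

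Mcts2, a retrogene within an intron of H13, gave 485.6 and 545.2 units on the TRAP arrays against 119.5 and 132.4 units on the input arrays (log2 fold change 2.03, limma adjusted p = 0.00481). Without TRAP replicate 4 its adjusted p was 0.0518. Mest, a paternally expressed gene of the hydrolase fold, gave 297.6 and 404.5 units on the TRAP arrays against 82.5 and 101.5 units on the input arrays (1.92, adjusted p = 0.0273). Its adjusted p lay between 0.0931 and 0.130 with any 1 of the 4 arrays left out. Asb4, a subunit of a ubiquitin ligase, had a log2 fold change of 2.18 with an adjusted p of 0.0852.

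Among the genes that did not pass, Nap1l5 had a mean of 25308 units in TRAP RNA and 17528 units in input RNA, Blcap 12169 and 5994 units, and Inpp5f 8058 and 6918 units in the same order. Igf2, the paternally expressed growth factor that in brain is made mostly by the choroid plexus and meninges, gave 144.4 and 112.6 units on the TRAP arrays against 663.1 and 2016 units on the input arrays (log2 fold change -3.18, adjusted p = 0.0797). The input arrays differed in the same order in Ttr, the choroid plexus gene of transthyretin, which gave 1333 units on input replicate 1 and 17929 units on input replicate 2. Its part in the value of Igf2 was not tested.

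**Figure D4:**
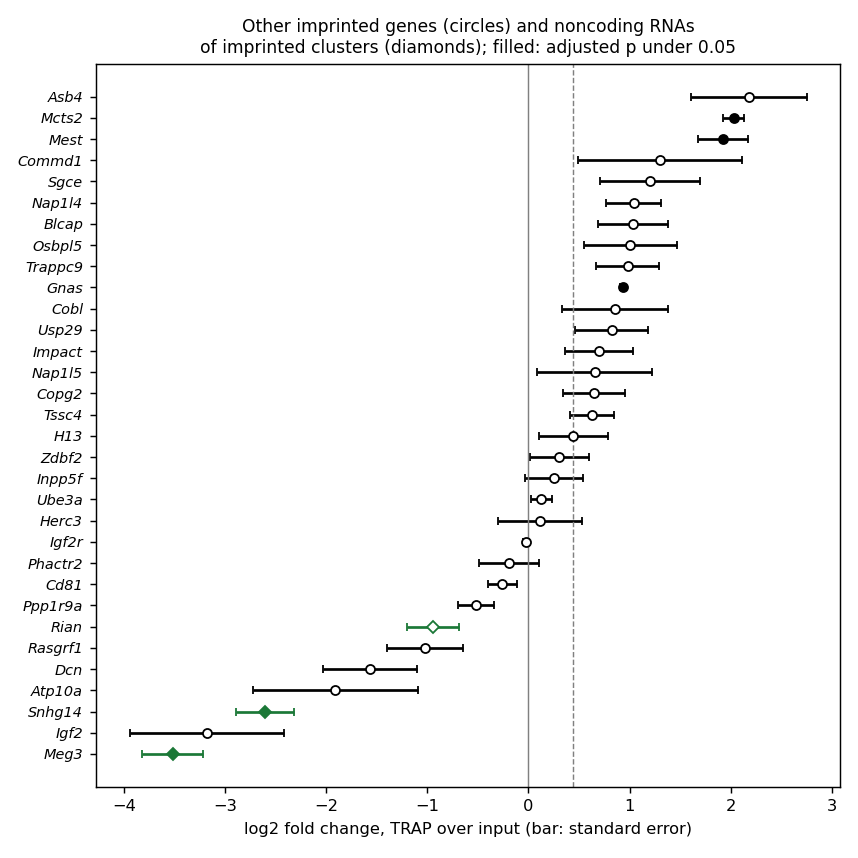
Log2 fold change of TRAP over input with its standard error for the 29 other imprinted protein-coding genes above background (circles) and 3 noncoding RNAs of imprinted clusters (green diamonds), by their brightest probe set. Filled symbols passed an adjusted p of 0.05, and the dashed line is the median of all genes above background at 0.44. Mcts2, Mest and Gnas are filled to the right, and Meg3 and Snhg14 to the left.

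Of 7 noncoding RNAs of imprinted clusters that were measured, 3 were above background, of which 2 were lower by their brightest probe set. TRAP selects for RNA carried by ribosomes, so a lower value does not give the level of these RNAs in dopamine neurons. The part of unspecific carry-over in their remaining TRAP signal was not tested. Meg3, made from the maternal copy of the Dlk1 cluster, gave 1587 and 1032 units on the TRAP arrays against 13650 and 15768 units on the input arrays (log2 fold change -3.52, limma adjusted p = 0.0132), and 10 of its 11 probe sets were lower. Of all probe sets above background 9.13% were lower and 18.8% higher. Without 1 of the input arrays its adjusted p was 0.0899 or 0.0970. Snhg14, the long host transcript beyond Snrpn, fell by 2.61 on the log2 scale (adjusted p = 0.0208, and 0.0599 without TRAP replicate 2, 0.114 without input replicate 1 and 0.125 without input replicate 2), while Rian did not pass by its brightest probe set (-0.94, adjusted p = 0.0852) but was lower by 2 of its 3 probe sets above background, and Mirg was below background.

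Because Dlk1 is counted among the Notch ligands without the receptor-binding domain, the Notch pathway was read from 4 lists of 49 genes, of which 46 were measured and 33 were above background. Of these 33, 4 were higher, against 18.7% of all genes above background, 2 were lower, against 6.87%, and 27 did not pass. The median log2 fold change was 0.15, against 0.44 for all genes.

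Among 5 ligands above background, Jag1, a ligand that activates Notch on neighbouring cells, gave 26.4 and 13.7 units on the TRAP arrays against 131.4 and 124.1 units on the input arrays, at least 2.56-fold lower (limma adjusted p = 0.0408). Without input replicate 1 or 2 its adjusted p was 0.182 and 0.179. Dner, a neuronal relative of the ligands, did not pass and had means of 11857 units in TRAP RNA and 10535 units in input RNA. Dlk2, the closest relative of Dlk1, gave means of 115.5 and 178.8 units in the same order and the fractions overlapped.

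Of the receptors, Notch1 gave 64.2 and 46.0 units on the TRAP arrays against 264.2 and 246.8 units on the input arrays (log2 fold change -2.23, adjusted p = 0.0181), and its adjusted p was 0.116 without input replicate 1 and 0.113 without input replicate 2. Notch2 (-2.66, adjusted p = 0.0605) and Notch3 (-1.73, adjusted p = 0.0910) did not pass, and Notch4 was below background. All 3 receptors above background had both TRAP arrays below both input arrays, as did 23.6% of all genes.

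Among 19 genes of ligand and receptor processing, 4 were higher by their brightest probe set, against 18.7% of all genes, and 0 lower, against 6.87%. Mib1 did not pass by its brightest probe set but was lower by 1 of its 2 above background. Numbl, an adaptor that restrains Notch, gave 335.8 and 337.9 units on the TRAP arrays against 85.5 and 93.6 units on the input arrays (1.91, adjusted p = 0.00190), and passed under all 10 alternatives. Psenen, a subunit of the gamma-secretase that cuts the receptor, had a log2 fold change of 1.10 (adjusted p = 0.00794). Furin, the protease that cuts it on the way to the surface, was at least 2.09-fold higher (adjusted p = 0.0138). Dtx4, a ubiquitin ligase of the pathway, had a log2 fold change of 0.62 (adjusted p = 0.0160) and passed under 3 of 10 alternatives. Without 1 of the input arrays the adjusted p of Psenen was 0.0675 or 0.0638. Without 1 of the TRAP arrays that of Furin was 0.117 or 0.126 and that of Dtx4 was 0.119 or 0.130. Of 6 nuclear genes above background none passed. Hes5, a target of Notch, gave 156.8 and 65.8 units on the TRAP arrays against 538.9 and 823.6 units on the input arrays (-2.71, adjusted p = 0.0790).

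**Figure D5:**
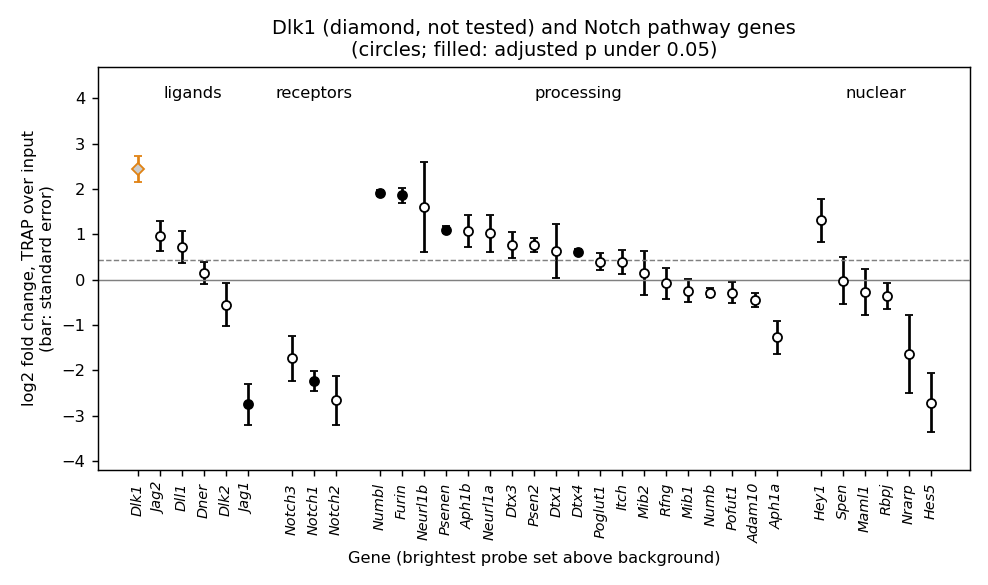
Log2 fold change of TRAP over input with its standard error for Dlk1 (diamond, described without a test) and 33 Notch pathway genes above background, by their brightest probe set, in groups of ligands, receptors, processing and nuclear genes. Filled circles passed an adjusted p of 0.05 and the dashed line is the median of all genes above background at 0.44. Dlk1 lies at 2.45, above the 5 other ligands, and the 3 receptors lie under 0.

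Relatives and partners of the other genes were read from 8 lists of 57 genes, of which 52 were measured and 42 were above background. Of these, 5 were higher, against 18.7% of all genes above background, 2 were lower, against 6.87%, and 35 did not pass. The median log2 fold change was 0.48, close to the 0.44 of all genes. The MAGE family, to which Ndn and Magel2 belong, had 5 measured genes, Maged1, Maged2, Magee1, Mageh1 and Nsmce3. All 5 had both TRAP arrays above both input arrays, as did 52.3% of all genes, and a median log2 fold change of 2.05, but none passed. Magee1 gave 3352 and 5316 units on the TRAP arrays against 1404 and 704.7 units on the input arrays (adjusted p = 0.0852). Maged1 gave 2547 and 5104 units on the TRAP arrays against 1103 and 1771 units on the input arrays (adjusted p = 0.161). Of the 11 ubiquitin ligase and retromer partners of MAGE proteins, only Washc2 passed by its brightest probe set. It was lower, with a log2 fold change of -0.17 (limma adjusted p = 0.0449), and it passed under 2 of 10 alternatives. A dimmer probe set was higher for Trim27 (1 of 3 above background) and for Vps26b (1 of 2). Trim27, the partner of Magel2, had means of 2540 units in TRAP RNA and 1972 units in input RNA.

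Of the relatives of Cdkn1c, Cdkn1a, the inhibitor p21, gave 1359 and 1287 units on the TRAP arrays against 339.7 and 407.0 units on the input arrays (log2 fold change 1.83, adjusted p = 0.00865). Cdkn2d, the inhibitor p19Ink4d, gave 1387 and 1038 units on the TRAP arrays against 228.0 and 157.7 units on the input arrays (2.66, adjusted p = 0.0234). Cdkn1b, the inhibitor p27Kip1, had means of 746.1 units in TRAP RNA and 776.6 units in input RNA, and Cdkn2a, Cdkn2b and Cdkn2c were below background. Without 1 of the TRAP arrays the adjusted p was 0.0974 or 0.0953 for Cdkn1a and 0.127 or 0.125 for Cdkn2d, and without 1 of the input arrays it was 0.0746 or 0.0931 for Cdkn2d.

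Of 12 genes above background among relatives of Grb10 and members of insulin and IGF signalling, 1 passed. Insr, the insulin receptor that Grb10 binds, gave 362.1 and 403.2 units on the TRAP arrays against 708.7 and 824.8 units on the input arrays and was lower (adjusted p = 0.0257). Its adjusted p lay between 0.0730 and 0.130 with any 1 array left out. Igf1r, the other receptor, had a log2 fold change of -1.16 (adjusted p = 0.215). Igf1 did not pass by its brightest probe set but was higher by 2 of its 4 probe sets above background. Of the 5 Sm core proteins measured, which assemble with SmN, Snrpf passed as higher (1.25, adjusted p = 0.0148), at 0.120 without TRAP replicate 2 and 0.130 without TRAP replicate 4. Snrpd3, Snrpe and Snrpg did not pass. Snrpb, the close relative of Snrpn, had means of 3349 units in TRAP RNA and 2547 units in input RNA.

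Of the calcium pumps and the small regulators that neuronatin resembles, Atp2a3 gave 241.4 and 378.6 units on the TRAP arrays against an identical 16.2 units on both input arrays, at least 6.05-fold higher (adjusted p = 0.00922, and 0.0806 or 0.0819 without 1 of the input arrays). Atp2a2, the main pump of neurons, had means of 8884 units in TRAP RNA and 10735 units in input RNA, and Atp2a1, Pln and Sln were below background. Among partners of Peg3, Traf2 was at least 1.06-fold higher (adjusted p = 0.0230, and 0.132 or 0.134 without 1 of the input arrays), a difference close to the background. Siah1a, Siah2 and Trim28 did not pass by their brightest probe sets and Zfp57 was below background. Of 2 Trim28 probe sets above background, the dimmer 1 was higher. Plag1 and Plagl2, the relatives of Plagl1, were below background.

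The 3 nearest measured protein-coding genes on each side of each of the 9 were looked up to see whether neighbours moved alike. Of 42 such genes, 26 were above background, of which 3 were higher, against 18.7% of all genes, and 1 lower, against 6.87%. Wdr25, the nearest before Dlk1, gave 222.0 and 300.1 units on the TRAP arrays against 28.4 and 31.5 units on the input arrays, at least 5.16-fold higher (limma adjusted p = 0.00853, and 0.0749 or 0.0725 without 1 of the input arrays). On the other side Dync1h1, the heavy chain of cytoplasmic dynein, was lower (log2 fold change -1.43, adjusted p = 0.0423), with an adjusted p between 0.107 and 0.164 when any 1 array was left out. Ddc, the enzyme that makes dopamine from L-DOPA, lies next to Grb10 and gave 28786 and 36202 units on the TRAP arrays against 3470 and 2364 units on the input arrays (3.49, adjusted p = 0.0130, and 0.101 or 0.113 without 1 of the TRAP arrays and 0.0538 without input replicate 2). Sf3b5, a splicing factor subunit next to Plagl1, was higher (2.72, adjusted p = 0.0195, and 0.121 or 0.122 without 1 of the input arrays), while Plagl1 itself was lower on both TRAP arrays.

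Over the 4 arrays, log2 values of 9290 genes were compared with those of Dlk1 by its brightest probe set, 1442724_at. The measure was Euclidean distance after each gene was centred on its own mean. The closest genes were Tomm40 (distance 0.0709), Coa7 (0.115), Lrfn1 (0.119), Tfr2 (0.120) and Panx1 (0.124). The other Dlk1 probe set, 1449939_s_at, with a log2 fold change of 6.25, was not compared. Tomm40, the channel through which proteins enter mitochondria, gave 382.5 and 473.2 units on the TRAP arrays against 67.7 and 91.8 units on the input arrays. Likeness over 4 arrays is a description of these arrays only. Nr4a2 and Pitx3, the factors described as acting on Dlk1, were both higher in TRAP RNA. They were among 6 higher of the 7 dopamine lineage factors above background, against 18.7% of all genes above background. Being higher was thus not particular to them. Nr4a2 gave 13844 and 19037 units on the TRAP arrays against 1793 and 1399 units on the input arrays (3.36, adjusted p = 0.0116, and between 0.0674 and 0.0785 with any 1 array left out). Pitx3 gave 200.9 and 224.1 units on the TRAP arrays against an identical 4.60 units on both input arrays (adjusted p = 0.000349).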

How the data were processed

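RNA of the TRAP and input fractions was amplified in 2 cycles and hybridised to Affymetrix mouse genome arrays. The authors processed the arrays with GCRMA (background correction, quantile normalization and summary per probe set) in R and deposited 1 log2 value per probe set and array. GCRMA sets dim probe sets to a floor, here shared by the arrays of a fraction. Values of separate arrays can therefore be identical, and folds of dim genes depend on the floor. The GCRMA version and the annotation used upstream are not given in the sources used here.

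From the 45101 probe sets, 64 control probe sets were left out. The remaining 45037 were named from the platform annotation (34945 with 1 gene symbol, 932 with several, 9160 with none). limma 3.58.1 in R 4.3.3 fitted TRAP against input on the log2 values over all probe sets, adjusted by Benjamini-Hochberg at a threshold of 0.05; errors are its moderated standard errors, with 2 residual degrees of freedom. Calls were counted among probe sets for which a fraction had both arrays at no less than 50 units. A fraction under 50 units on both arrays was set to 50 for folds given as at least N-fold. A gene was read by its brightest probe set. Array number, here 2 per fraction, limits the precision. Arrays of 1 fraction come from separate pools of mice. Per the methods input was collected in parallel from each replicate. If the replicate numbers name the pools, the arrays numbered 2 of both fractions share a pool and the others have no partner here. The labels do not state which input belongs to which TRAP pool.

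Named were the 9 genes with all their probe sets; of each other list up to 6 called genes with the largest change and up to 3 others with the most signal, and every gene of lists under 8; 3 neighbours on each side; and the 5 genes closest to Dlk1. Asb4, Igf2, Dlk2, Hes5, Igf1r, Pmch and Ttr were chosen after their values were seen. The genes and lists were chosen with earlier results of these data known. The fit was tested on simulated data. Alternatives were quantile normalization, centring on bright probe sets, a floor of 50 units, a background of 100 units, a fit of bright probe sets only, an intensity trend, a threshold of 0.01, averaging the probe sets of a gene and leaving out each array. For centring, bright meant 50 units or more on all arrays. For the fit of bright probe sets it meant all probe sets above background.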

Additional observations from a re-analysis of the deposited data

How the results depend on the processing

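No paired analysis was run, because the fractions share fewer than 2 replicate numbers and the labels do not name the pools. With 2 arrays per fraction, counts of calls moved with most settings. The signs of the log2 fold changes of the 9 genes mostly stayed. Grb10 came to -0.05 when its probe sets were averaged, and Cdkn1c to 0.00 with a floor of 50 units. The causes were not tested. Leaving out 1 array could not change a sign, since the fractions did not overlap at the brightest probe set of any of the 9. The log2 fold change of Dlk1 (2.45) was 1.93 after quantile normalization, 2.04 after centring on bright probe sets and 4.35 when its probe sets were averaged, and ran between 2.18 and 2.71 with 1 array left out.

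Of all probe sets above background, 3213 were higher and 1559 lower. With a floor of 50 units, where most residual variances were 0 and the moderated fit is unreliable, 824 were higher and 467 lower, and of the genes named in the lists as called, Mest, Meg3, Snhg14, Notch1, Psenen, Dtx4, Washc2, Cdkn1a, Cdkn2d, Insr, Snrpf, Traf2, Atp2a3, Nr4a2, Ddc, Aldh1a1 and Slc18a2, with the neighbours Wdr25, Dync1h1 and Sf3b5, no longer passed. At an adjusted p of 0.01 these were 944 and 632, 3867 were lower after centring, and 1006 were lower with a background of 100 units. With 1 array left out, 1340 to 2652 were higher and 842 to 1313 lower.

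Other imprinted genes lower (0) came to 1 after quantile normalization, 6 after centring, 1 in the fit of bright probe sets, 1 with the intensity trend and 2 with the gene mean, and to between 0 and 1 with 1 array left out. Of the Notch genes, 2 were higher with the floor and 2 at 0.01 (4 in the reported fit), and between 3 and 6 with 1 array left out. Notch genes lower (2) came to 5 after quantile normalization, 9 after centring, 1 with the floor, 5 in the fit of bright probe sets, 4 with the trend, 0 at 0.01 and 5 with the gene mean, and to between 1 and 3 with 1 array left out. Relatives and partners higher (5) came to 0 with the floor, 8 in the fit of bright probe sets, 2 at 0.01 and 11 with the gene mean, and to between 2 and 6 with 1 array left out. Relatives and partners lower (2) came to 6 after centring, 0 with the floor, 1 in the fit of bright probe sets, 1 with the trend, 0 at 0.01 and 1 with the gene mean, and to between 0 and 1 with 1 array left out.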
